A study of Homo sapiens with 58 samples.

Results

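Sayeok-tang, a multi-herb formula that contains dried ginger, was compared with dried ginger itself at the high dose in HepG2 cells, a liver cancer line that keeps much of the gene expression of a hepatocyte. The members were the 5 libraries labelled with the high dose of either extract, out of 58 libraries in the series. Sayeok-tang was a hot water extract and had 3 libraries, and dried ginger (Zingiberis Rhizoma) was an ethanol extract and had 2. Both were given at 500 µg/mL for 24 h. The vehicle libraries, 3 in number, received DMSO only, at 0.1% by the sample labels and at 2% by the series text. Lower doses of both extracts, 100 µg/mL (medium) and 20 µg/mL (low), had 3 libraries each. The dose was matched by mass of extract, and the labels do not give how much ginger the formula extract holds. Herbs, solvent and label number all differ between the sides, and what each of them contributes cannot be told apart here. All libraries share the label BatchC. The vehicle libraries carry yet another label number, so the same limit holds for each extract against the vehicle. Nothing in the labels shows that replicates came from separate cultures, and the spread behind each p-value may therefore be technical.

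Sayeok-tang is traditionally made from processed aconite root, licorice and dried ginger, and ginger is known for its pungent gingerols and shogaols. Cells that meet reactive or amino acid depleting compounds use several known programmes. ATF4, a transcription factor whose translation rises under amino acid or endoplasmic reticulum stress, switches on amino acid synthesis and transport genes, and CHOP (the product of DDIT3) acts with it. NRF2 is freed from its inhibitor KEAP1 by reactive electrophiles and drives genes of glutathione and NADPH supply. The aryl hydrocarbon receptor (AhR) binds many planar plant compounds and induces CYP1A1. Metallothioneins are small cysteine-rich proteins that bind zinc and are induced by zinc through MTF1. Mitotic genes are switched on late in the cell cycle through promoters that carry a cell cycle homology region, and they fall when fewer cells divide.

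The promoters of 4 genes that the results turn on are shown first, 1 for each of 4 programmes, as the 160 bases before the transcription start that RefSeq gives on GRCh38.p14. Each reads 5′ to 3′ on the gene's strand, and capitals mark the motif named with it, found on either strand. ASNS (asparagine synthetase) lies at chr7:97872409-97872568, minus strand, with the amino acid response element core TGATGNAA. ASNS had 2 promoters in RefSeq, and the stretch shown was picked by its number of motif matches. PLK1 (a mitotic kinase) lies at chr16:23678729-23678888, plus strand, with TTTGAA, the letters of the cell cycle homology region. MT1X (a metallothionein) lies at chr16:56682310-56682469, plus strand, with the metal response element core, TGCACNC or TGCGCNC. CYP1A1 (a cytochrome P450 that oxidises planar aromatic compounds) lies at chr15:74725529-74725688, minus strand, with the xenobiotic response element core GCGTG.
ASNS: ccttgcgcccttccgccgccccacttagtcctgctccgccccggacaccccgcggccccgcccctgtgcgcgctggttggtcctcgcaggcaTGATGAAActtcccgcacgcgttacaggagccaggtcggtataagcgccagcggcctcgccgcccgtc
PLK1: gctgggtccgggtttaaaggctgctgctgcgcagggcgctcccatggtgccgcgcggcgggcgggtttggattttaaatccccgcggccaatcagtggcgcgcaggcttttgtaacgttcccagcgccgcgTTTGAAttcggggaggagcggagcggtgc
MT1X: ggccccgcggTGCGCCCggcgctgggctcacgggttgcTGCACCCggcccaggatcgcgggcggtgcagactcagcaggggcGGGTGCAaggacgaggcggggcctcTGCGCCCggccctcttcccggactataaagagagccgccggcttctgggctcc
CYP1A1: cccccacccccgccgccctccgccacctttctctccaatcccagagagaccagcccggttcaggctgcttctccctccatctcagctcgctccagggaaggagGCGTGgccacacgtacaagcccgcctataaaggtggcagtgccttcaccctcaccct
A match is a description of the letters and not a bound site. The metal response element letters stood in 4 places of the MT1X stretch, and each of the other motifs stood once in its stretch. Over the 250 bases before each start, TGATGNAA stood in 2 of the 20 ATF4 and CHOP targets with a promoter in the RefSeq table (ASNS and ATF3), against 3.89% of all 27305 genes there. TTTGAA stood in 8 of 15 mitotic genes, against 16.1% of all genes. The metal response core stood in each of the 3 matched genes of the metallothionein list (MT1X, MT2A and SLC30A1), against 28.5% of all genes, and GCGTG stood in 3 of 5 AhR targets, against 36.2%. The antioxidant response element core TGACNNNGC, through which NRF2 acts, stood in 4 of 16 NRF2 targets, against 13.2%.

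The 3 Sayeok-tang libraries held 25510079 to 30911259 counts, the 2 dried ginger libraries 23165220 to 23435342 and the vehicle libraries 24077535 to 26409029. Replicates lay close together. The median absolute log2 difference over genes was 0.0741 to 0.0822 between Sayeok-tang libraries and 0.0753 between the 2 dried ginger libraries, against 0.15 to 0.161 across the extracts. From the vehicle the distance was 0.162 to 0.174 for Sayeok-tang and 0.204 to 0.208 for dried ginger. Hepatocyte markers summed to 35400 to 38500 CPM (the gene's share of all counts, per 1000000) in Sayeok-tang, 35600 to 36800 in dried ginger and 41600 to 42200 in the vehicle. Of the markers of other cells, 4 of 8 fibroblast (COL1A2, DCN, LUM and FAP), 3 of 8 leukocyte (PTPRC, CD3E and CD163), 1 of 6 endothelial (KDR), 2 of 6 intestinal (MUC2 and SI) and 3 of 5 lung markers (SFTPC, SCGB1A1 and NKX2-1) were listed at 0 in all 8 libraries. In Sayeok-tang, dried ginger and the vehicle, in that order, fibroblast markers summed to 12 to 13.7, 12.1 to 12.5 and 10.2 to 11.8 CPM, nearly all of it PDGFRB. Intestinal markers summed to 126 to 130, 126 to 129 and 135 to 137 CPM, nearly all of it LGR5. Endothelial markers summed to 3.05 to 3.43, 3 to 3.18 and 3.75 to 4.97 CPM, and lung markers to at most 0.152 CPM in any library. The leukocyte marker sum was 1900 to 2030 CPM in Sayeok-tang, 1510 to 1540 in dried ginger and 1320 to 1400 in the vehicle. Nearly all of that sum was LYZ (lysozyme), at 1850 to 1970, 1450 to 1460 and 1290 to 1370 CPM. CD68, which encodes a lysosomal membrane protein, measured 52.8 to 56.4, 63.9 to 73.9 and 30.6 to 34.2 CPM. What part these markers have in the results was not tested.

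Between the extracts, most ATF4 and CHOP, NRF2 and lysosomal genes tested were higher in dried ginger. Most mitotic and DNA replication genes tested, and 7 of 11 NF-kB genes, were higher in Sayeok-tang. By edgeR's quasi-likelihood test with Benjamini-Hochberg adjustment at 0.05, 4171 genes differed (29.9% of the 13945 tested), 2080 higher in Sayeok-tang (14.9%) and 2091 higher in dried ginger (15%). For 55.4% of all genes tested the libraries of the extracts did not overlap, so a lack of overlap alone says little about a gene. Most differences were small: 35 genes were at least 2-fold higher in Sayeok-tang and 101 in dried ginger, together 0.975% of the genes. The median log2 fold change over all genes tested was -0.01. The counts of list members between the extracts, given below, stand against the shares of 14.9% and 15%. All log2 fold changes between the extracts are Sayeok-tang over dried ginger, so a negative value means more RNA in dried ginger. Without dried ginger replicate 1 the counts were 1470 and 1455, and without its replicate 2 they were 1468 and 1443. RNA per cell and the number of cells of a state cannot be told apart in such bulk libraries.

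**Figure D1:**
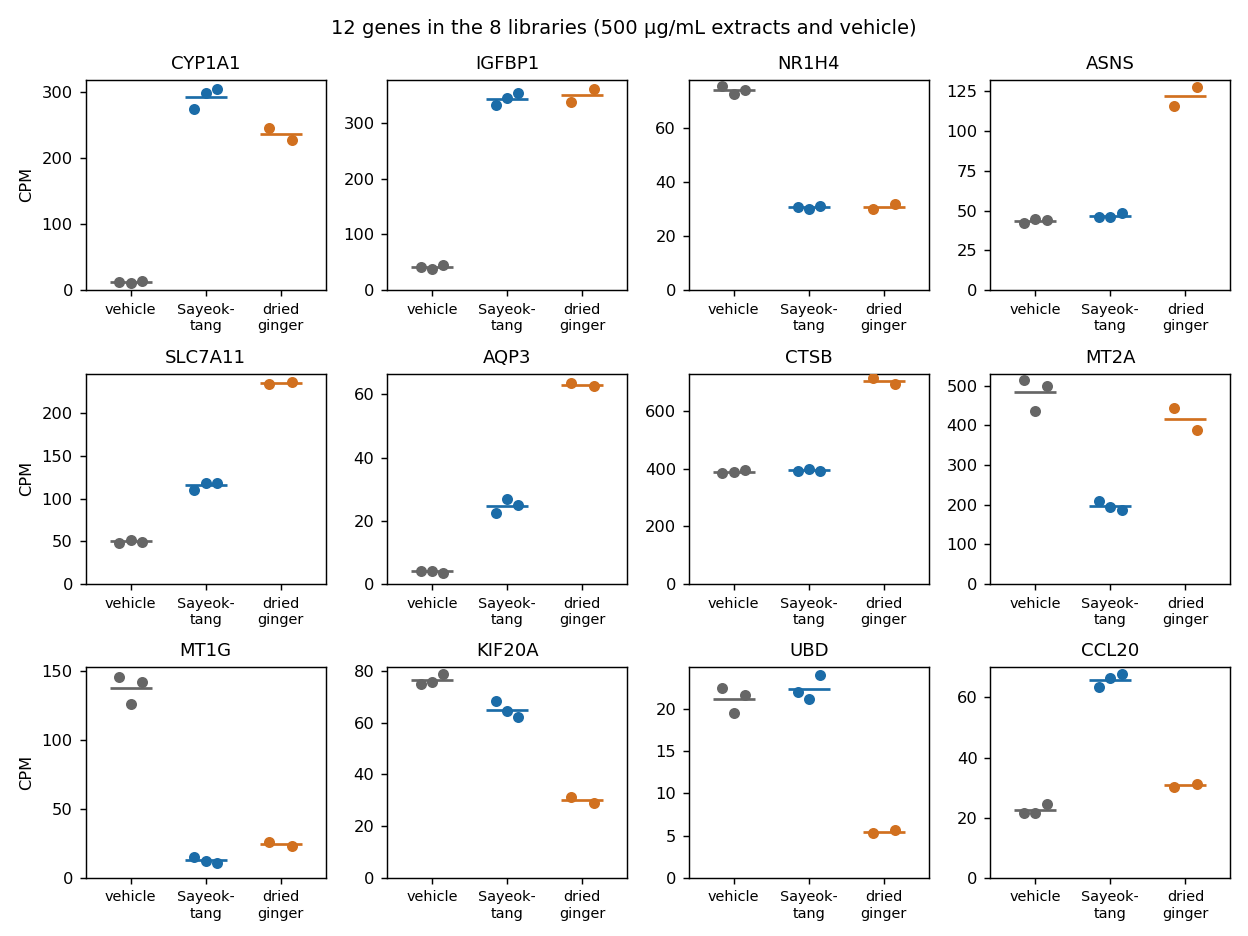
CPM (vertical axis, from 0) of 12 genes in each library, with points for the 3 vehicle, 3 Sayeok-tang high and 2 dried ginger high libraries and a bar at each group mean. IGFBP1 and NR1H4 have overlapping extract libraries, while ASNS, CTSB, KIF20A and UBD lie near the vehicle in Sayeok-tang and away from it in dried ginger.

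Of the lists, the ATF4 and CHOP targets had the most genes called higher in dried ginger. Of 25 genes tested, 19 were higher in dried ginger and none in Sayeok-tang, with a median of -0.49. The metallothionein and drug metabolism lists, given below, had medians further in that direction (-0.82 and -0.63). ASNS, which makes asparagine, measured 45.7, 46 and 48.8 CPM in Sayeok-tang, 116 and 128 in dried ginger and 42.1, 44.8 and 44.4 in the vehicle. The Sayeok-tang libraries thus lay just above the vehicle ones and the dried ginger libraries far above both. Its log2 fold change between the extracts was -1.38 ± 0.0516 (SE, adjusted p = 1.9e-24). ALDH1L2, a mitochondrial folate enzyme, differed by -1.54 ± 0.12 (adjusted p = 3.9e-14), from 4.31 to 5.21 CPM in Sayeok-tang against 13.7 to 14.9. VLDLR, a receptor for triglyceride-rich lipoproteins, differed by -1.49 ± 0.161 (adjusted p = 4.9e-10). SLC7A11, the cystine importer that feeds glutathione synthesis and that NRF2 also induces, measured 110, 118 and 118 CPM in Sayeok-tang, 234 and 237 in dried ginger and 48 to 52 in the vehicle. It rose over the vehicle in both, by 1.21 in Sayeok-tang and by 2.24 in dried ginger on the log2 scale.

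Some genes of the same list fell below the vehicle in Sayeok-tang. PHGDH, which starts serine synthesis from glycolysis, measured 94.1 to 100 CPM in Sayeok-tang, 147 to 150 in dried ginger and 135 to 139 in the vehicle. The formula libraries lay below every vehicle library and the ginger libraries above. PCK2, the mitochondrial enzyme that makes phosphoenolpyruvate, and NUPR1, a stress-induced nuclear protein, had the same order, with log2 fold changes between the extracts of -0.65 and -0.96. DDIT3 measured 8.77, 9.29 and 9.76 CPM in Sayeok-tang, 15 and 13.5 in dried ginger and 11.8 to 13 in the vehicle. SLC6A9, a glycine transporter, fell in Sayeok-tang by 0.87 on the log2 scale and in dried ginger was 0.06 above the vehicle, which did not pass the test. Not every ATF4 target separated the extracts: GDF15, a secreted stress cytokine, measured 449 to 501 CPM in Sayeok-tang and 521 to 527 in dried ginger against 156 to 177 in the vehicle, and its difference of -0.15 (95% interval -0.29 to -0.01, adjusted p = 0.095) did not pass. PPP1R15A, which restarts translation after stress, and ATF3 likewise rose over the vehicle in both and had intervals of -0.08 to 0.22 and -0.09 to 0.33 between them.

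The cytosolic tRNA synthetases, which load amino acids onto tRNAs and of which several are ATF4 targets, followed. Of 20, 13 were higher in dried ginger and 2 in Sayeok-tang, with a median of -0.19. MARS1 (methionine) measured 149 to 152 CPM in Sayeok-tang, 211 and 214 in dried ginger and 131 to 136 in the vehicle, a log2 fold change of -0.50 between the extracts. SARS1 (serine), CARS1 (cysteine) and GARS1 (glycine) differed by -0.43, -0.41 and -0.40.

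NRF2 targets rose in both extracts and part of them rose further in dried ginger. Over the vehicle, 21 of 23 were higher in Sayeok-tang (background 20.3% of all genes higher) and all 23 tested were higher in dried ginger (23.3%). Between the extracts 15 were higher in dried ginger and 1 in Sayeok-tang, with a median of -0.26. Genes that separated the extracts included exporters and reductases. ABCC2, which exports conjugated compounds into bile, measured 636, 681 and 646 CPM in Sayeok-tang, 1050 and 1030 in dried ginger and 334 to 349 in the vehicle. ABCC3, its basolateral counterpart, differed by -0.71 and AKR1C1, a carbonyl reductase with close paralogs among which reads may be shared, by -0.74. The ferritin heavy chain gene FTH1 differed by -0.41.

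Classical NRF2 targets that did not separate the extracts were held within narrow intervals. NQO1, a quinone reductase, measured 1260, 1210 and 1250 CPM in Sayeok-tang and 1250 and 1270 in dried ginger, against 660 to 684 in the vehicle. The libraries of the extracts overlapped, and the difference was -0.03 (95% interval -0.11 to 0.06). GCLM and GCLC, the subunits of the enzyme that starts glutathione synthesis, differed by -0.07 (-0.20 to 0.06) and -0.10 (-0.19 to -0.01), neither past the threshold. HMOX1, which degrades heme, rose little: its log2 change over the vehicle was 0.15 in Sayeok-tang and 0.34 in dried ginger.

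**Figure D2:**
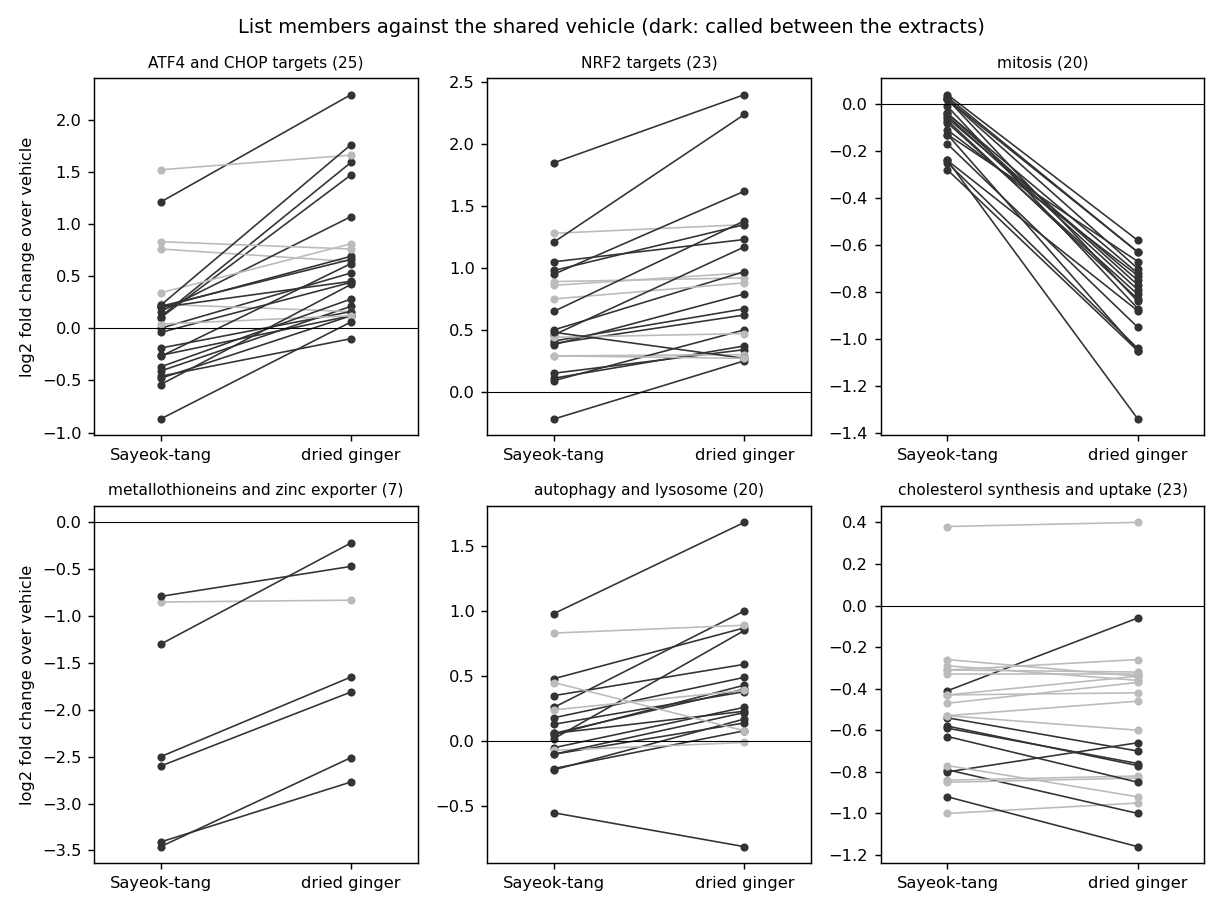
Log2 fold change over the vehicle (vertical axis) of each tested member of 6 lists, with Sayeok-tang high on the left and dried ginger high on the right, joined by a line for each gene. Both sides use the same 3 vehicle libraries, and dark lines mark genes called between the extracts. MT1M, which fell to almost no counts in both extracts, is not drawn. Mitotic genes lie between -0.28 and 0.04 for Sayeok-tang and between -1.34 and -0.58 for dried ginger.

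Of 20 genes of autophagy and the lysosome, 15 were higher in dried ginger and 1 in Sayeok-tang, with a median of -0.30. That 1 was TFEB, the transcription factor of that programme, at 0.27. Its call was lost in several alternative analyses, among them DESeq2 and leaving out Sayeok-tang replicate 2 or dried ginger replicate 1. CTSB, a lysosomal cysteine protease, measured 392, 398 and 393 CPM in Sayeok-tang, 713 and 693 in dried ginger and 385 to 395 in the vehicle. The formula libraries thus lay at the vehicle level, and the log2 fold change between the extracts was -0.83 ± 0.0342 (adjusted p = 3.4e-23). CTSL, a related protease, differed by -0.74. SQSTM1 (p62), an autophagy receptor that NRF2 also induces, rose in both and reached 504 to 517 CPM in Sayeok-tang and 819 to 830 in dried ginger, from 255 to 262.

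Drug metabolism genes, targets of the receptors PXR and CAR, were higher in dried ginger in 8 of 10 cases and in Sayeok-tang in none, with a median of -0.63. CYP3A5, a drug-oxidising cytochrome P450, measured 4.85 to 6.81 CPM in Sayeok-tang, 13.2 and 14.3 in dried ginger and 4.38 to 6.21 in the vehicle. The glutathione transferase genes GSTA1 and GSTA2, close paralogs, had another order: GSTA1 was 34.5 to 38.4 CPM in Sayeok-tang, below the 69.3 and 70.4 of dried ginger and the 76.7 to 82.8 of the vehicle. CYP3A7, the fetal form, likewise fell in Sayeok-tang, by 0.95 on the log2 scale, and was within 0.11 of the vehicle in dried ginger. NR1I2, which encodes PXR, measured 16.1 to 18.8 CPM in Sayeok-tang, 23.9 and 27.4 in dried ginger and 15.2 to 17 in the vehicle.

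Lipid handling genes of the PPARA and fatty acid oxidation list were higher in dried ginger in 9 of 16 cases and in Sayeok-tang in 1, with a median of -0.13. CPT1A, which admits long-chain fatty acids to mitochondria, measured 55.9, 58.3 and 57.2 CPM in Sayeok-tang, 108 and 103 in dried ginger and 37.5 to 39 in the vehicle. PLIN2, a coat protein of lipid droplets, rose from 119 to 134 CPM in the vehicle to 218 to 222 in Sayeok-tang and 389 to 401 in dried ginger. CREB3L3, a liver transcription factor of lipid metabolism, differed by -1.02 and stood at the vehicle level in Sayeok-tang (8.34 to 9.69 against 9.1 to 9.9 CPM).

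Outside these lists, the largest differences toward dried ginger were in genes of low level. IGFN1, a muscle-type immunoglobulin and fibronectin domain gene, measured 2.58, 2.63 and 2.83 CPM in Sayeok-tang, 10 and 12 in dried ginger and about 1 in the vehicle (0.986 to 1.15). VGF, a secreted neuropeptide precursor, measured 3.12 to 4.35 CPM in Sayeok-tang, 13.6 and 13.5 in dried ginger and 3.23 to 3.62 in the vehicle. SEL1L3, TMC8 and METRNL differed by -1.82, -1.78 and -1.61. ADM2, a vasoactive peptide, HID1, of the secretory pathway, and PAQR5, a membrane progesterone receptor, differed by -1.42, -1.39 and -1.38. AQP3, a channel for water and glycerol, rose in both, to 22.3 to 26.8 CPM in Sayeok-tang and 62.6 and 63.6 in dried ginger from 3.57 to 4.24. RGPD5 also met the naming rule at -1.92, but its libraries spread from 1.33 to 14 CPM within Sayeok-tang, reads of its near-identical relatives cannot be kept apart, and the call was kept in 8 of 13 alternative analyses.

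**Figure D3:**
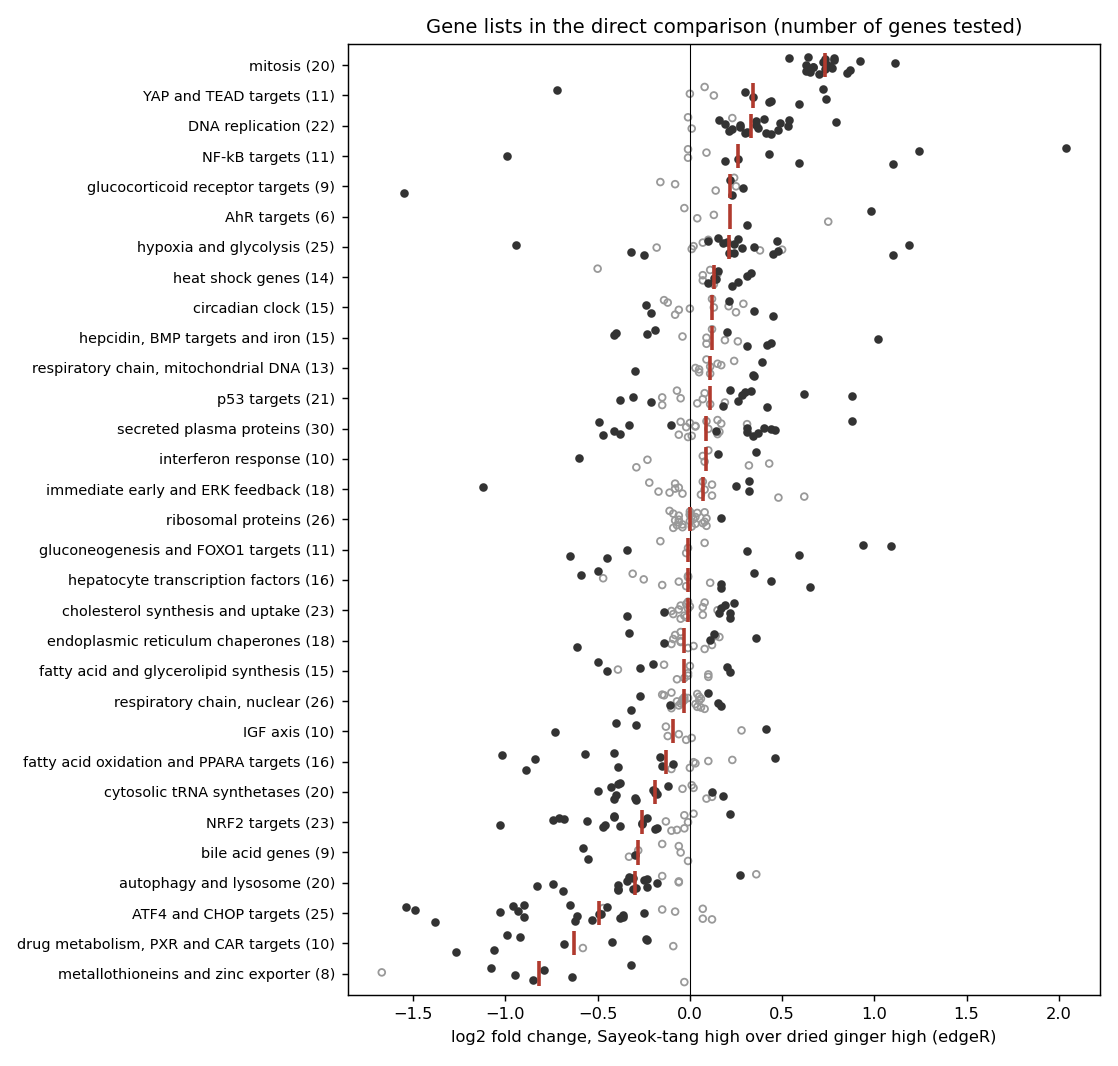
Log2 fold change of Sayeok-tang high over dried ginger high (horizontal axis) for each tested gene of the lists with at least 6 tested genes, ordered by median (red bar), with filled points for genes called by edgeR and open points for the others. Mitosis is at the top with a median of 0.73, and metallothioneins, drug metabolism and ATF4 and CHOP targets are at the bottom with -0.82, -0.63 and -0.49.

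Cell division genes fell in dried ginger and stayed near the vehicle in Sayeok-tang. All 20 mitotic genes tested were higher in Sayeok-tang, with a median of 0.73. Against the vehicle, all 20 fell in dried ginger (background 22.8% of all genes lower), with a median of -0.80, and 8 of 20 fell in Sayeok-tang (19.9%), with a median of -0.06. KIF20A, a kinesin of cytokinesis, measured 68.4, 64.4 and 62.4 CPM in Sayeok-tang, 31.2 and 29.1 in dried ginger and 74.9, 75.9 and 79 in the vehicle. PLK1 measured 265, 244 and 247 CPM in Sayeok-tang, 139 and 127 in dried ginger and 268 to 283 in the vehicle. The libraries of the extracts were far apart and those of Sayeok-tang just under the vehicle, with log2 fold changes between the extracts of 1.11 ± 0.0498 (adjusted p = 7.6e-22) for KIF20A and 0.92 ± 0.0494 (adjusted p = 2.9e-19) for PLK1. CCNA2 (cyclin A) and AURKB (a kinase of chromosome segregation) differed by 0.87 and 0.85, and in Sayeok-tang they were within 0.02 of the vehicle on the log2 scale.

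DNA replication genes had a smaller difference, with 19 of 22 higher in Sayeok-tang, none higher in dried ginger and a median of 0.33. RRM2, a subunit of ribonucleotide reductase, which makes deoxynucleotides, measured 472, 455 and 466 CPM in Sayeok-tang, 270 and 266 in dried ginger and 321 to 333 in the vehicle. Sayeok-tang was thus above the vehicle and dried ginger below it. RRM1, the other reductase subunit, had the same order with smaller steps (a log2 fold change of 0.49 between the extracts). GINS2, of the replicative helicase, stood at the vehicle level in Sayeok-tang and fell by 0.54 in dried ginger.

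Several NF-kB targets were higher in Sayeok-tang: 7 of 11 tested, against 1 higher in dried ginger, with a median of 0.26. The list held 16 genes, and those not tested were below the count filter. Fewer were called when either dried ginger library was left out (medians 0.27 without replicate 1 and 0.24 without replicate 2). UBD, a ubiquitin-like protein that cytokines induce, had the largest difference among the named genes on this side, with 22, 21.2 and 24 CPM in Sayeok-tang, 5.29 and 5.63 in dried ginger and 19.5 to 22.5 in the vehicle. It fell in dried ginger and stayed within the spread of the vehicle in Sayeok-tang, a log2 fold change of 2.04 ± 0.126 (adjusted p = 3.4e-17). CCL20, a chemokine, rose in both, to 63.6, 66.5 and 67.7 CPM in Sayeok-tang and 30.2 and 31.2 in dried ginger from 21.4 to 24.4. BIRC3, an inhibitor of apoptosis, rose by 1.13 on the log2 scale in Sayeok-tang (5.6 to 6.26 CPM, from 2.67 to 2.83 in the vehicle) and was 2.11 and 3.01 CPM in dried ginger, a difference of 1.24 between the extracts. ICAM1 and NFKB2 rose in both and differed by -0.01 each, with intervals of -0.11 to 0.09 and -0.15 to 0.14. TNFAIP2 was the member higher in dried ginger, at under 2 CPM in every library.

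Of 25 hypoxia and glycolysis genes, 15 were higher in Sayeok-tang and 3 in dried ginger, with a median of 0.21. Without dried ginger replicate 2 the 15 became 8. SLC2A3, the glucose transporter GLUT3, measured 352, 356 and 361 CPM in Sayeok-tang, 153 and 159 in dried ginger and 218 to 229 in the vehicle. It lay above the vehicle in Sayeok-tang and below it in dried ginger, a difference between the extracts of 1.19 ± 0.0655 (adjusted p = 5.2e-19). HK1 ran the other way at 2.11 to 2.12 CPM in dried ginger and 0.989 to 1.29 in Sayeok-tang. The list of gluconeogenesis and FOXO1 targets was mixed, with 4 of 11 higher in Sayeok-tang, 3 higher in dried ginger and a median of -0.01. Among the 4 were TXNIP and ARRDC4, related arrestins that respond to glucose through MondoA and ChREBP, which did not pass the test against the vehicle in Sayeok-tang and fell by 1.17 and 0.84 in dried ginger. PCK2, named above, was among the 3.

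Further genes at least 2-fold higher in Sayeok-tang were mixed in kind. CYGB (cytoglobin, an oxygen-binding protein), LEAP2 (a liver-secreted peptide), HOXD1 (a homeobox factor) and ODAM (an enamel-related secreted protein) fell in dried ginger by 1.14, 1.26, 1.14 and 1.3. The first 3 of these did not pass the test against the vehicle in Sayeok-tang, where ODAM fell by 0.29. LCN15, a lipocalin, rose from 0.74 to 1.34 CPM in the vehicle to 11.4 to 12.2 in Sayeok-tang and 4.95 and 5.38 in dried ginger. MT-RNR1, the mitochondrial small ribosomal RNA, measured 8540, 8910 and 11400 CPM in Sayeok-tang, 5000 and 4500 in dried ginger and 4600 to 5360 in the vehicle. How much of such RNA a library keeps also depends on its preparation, which was not tested. Of the 13 protein-coding genes of mitochondrial DNA, 3 were higher in Sayeok-tang (14.9% of all genes) and 1 in dried ginger (15%). The 3 became 6 without dried ginger replicate 1, and 1 without its replicate 2 or without Sayeok-tang replicate 2.

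Metallothioneins fell in both extracts and further in the formula. Against the vehicle all 8 tested genes of the list, which includes the zinc exporter gene SLC30A1, fell in Sayeok-tang (median -2.55). In dried ginger 7 fell (median -1.73). Over all genes tested, 19.9% fell in Sayeok-tang and 22.8% in dried ginger. Between the extracts 6 were lower in Sayeok-tang and none higher, with a median of -0.82. MT2A measured 210, 194 and 186 CPM in Sayeok-tang, 443 and 388 in dried ginger and 514, 435 and 500 in the vehicle. Every Sayeok-tang library lay below all others, while the dried ginger and vehicle libraries overlapped, and the decrease of 0.22 in dried ginger did not pass the test. The difference between the extracts was -1.08 ± 0.104 (adjusted p = 1.9e-11). MT1G fell in both, from 126 to 146 CPM to 10.8 to 14.9 in Sayeok-tang and 22.7 and 25.8 in dried ginger. MT1X, whose promoter is printed above, measured 12.5, 10.9 and 10.4 CPM in Sayeok-tang, 19 and 19.9 in dried ginger and 63.2 to 72.5 in the vehicle. MT1M was 2.23 to 3.12 CPM in the vehicle and at most 0.127 in either extract, too low to compare them. These genes are near-identical copies, so reads may be shared among them and their counts are not fully separate measurements.

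Some genes changed over the vehicle in both extracts with no difference detected between them, and 3 are given with their intervals. Other genes with large changes in both, such as CYP1A1, AQP3 and MT1G, did differ between the extracts. IGFBP1, a secreted binder of insulin-like growth factors, measured 332, 345 and 355 CPM in Sayeok-tang, 338 and 362 in dried ginger and 38.3 to 46 in the vehicle. The difference between the extracts was -0.02 (95% interval -0.25 to 0.21, adjusted p = 0.90). NR1H4, which encodes the bile acid receptor FXR, fell from 72.3 to 75.4 CPM to 30.1 to 31.1 in Sayeok-tang and 29.8 and 31.9 in dried ginger, with a difference of -0.01 (-0.13 to 0.11). ALB (albumin) was lower in both, at 8000 to 8090 and 8050 to 8080 CPM against 10000 to 10500, and differed by -0.01 (-0.09 to 0.08).

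Cholesterol synthesis and uptake genes fell in both extracts. Lower than the vehicle were 22 of 23 in Sayeok-tang (19.9% of all genes) and 21 of 23 in dried ginger (22.8%). HMGCS1, which makes the precursor of mevalonate, measured 233 to 242 CPM in Sayeok-tang and 242 and 248 in dried ginger, from 462 to 483, with a difference of -0.05 (-0.13 to 0.04). Between the extracts 6 of the list were higher in Sayeok-tang and 2 in dried ginger, with a median of -0.01. SQLE, a squalene-oxidising enzyme of the pathway, was among the 6, by 0.22. Of 18 immediate early and ERK feedback genes, 17 rose in Sayeok-tang (20.3% of all genes) and 16 in dried ginger (23.3%). DUSP5, a phosphatase of nuclear ERK, was the 1 member higher in dried ginger (13.6 and 15 CPM against 6.43 to 6.7), while IER3, HBEGF and DUSP6 were higher in Sayeok-tang by 0.32, 0.32 and 0.25. The call of HBEGF was kept in 5 of 13 alternative analyses.

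CYP1A1 had the largest rise over the vehicle among the named genes in both extracts. It measured 274, 299 and 304 CPM in Sayeok-tang, 245 and 227 in dried ginger and 12.7, 10.7 and 14 in the vehicle. The groups did not overlap, and the log2 fold change between the extracts was 0.31 ± 0.0757 (95% interval 0.16 to 0.46, adjusted p = 0.0012). Without dried ginger replicate 2 the adjusted p was 0.053. Of the 6 AhR targets tested, 5 rose in each extract, against 20.3% of all genes in Sayeok-tang and 23.3% in dried ginger. Higher in Sayeok-tang than in dried ginger were 2, CYP1A1 and ALDH3A1 (an aldehyde dehydrogenase, 2.34 to 2.78 CPM against 1.18 and 1.44).

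Heat shock genes, which encode chaperones of the cytosol and mitochondria, and YAP and TEAD targets were also called mostly in the direction of Sayeok-tang. Of 14 heat shock genes, 8 were higher in Sayeok-tang and none in dried ginger, with a median of 0.13, and the 8 became 5 without dried ginger replicate 2. YAP and TEAD targets, genes that respond to cell shape and contact, had 7 of 11 higher in Sayeok-tang, with a median of 0.34. CCN1, a secreted matrix protein, was among them (0.59), and AXL, a receptor kinase, was the member higher in dried ginger (-0.72).

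The remaining lists had calls in both directions or few calls. Over all genes tested, 14.9% were higher in Sayeok-tang and 15% in dried ginger, and several of the counts below lie near those shares. Of 30 secreted plasma proteins, 9 were higher in Sayeok-tang and 6 in dried ginger, among them FGA (a fibrinogen chain, 0.46) and APOA2 (-0.47). CP, which encodes the copper carrier ceruloplasmin, measured 142 to 155 CPM in Sayeok-tang against 80.6 and 83.2 in dried ginger and 63 to 73.4 in the vehicle. Of 21 p53 targets 9 were higher in Sayeok-tang and 3 in dried ginger, with CDKN1A, a brake on the cell cycle, at 147 to 153 CPM in Sayeok-tang, 112 in both dried ginger libraries and 101 to 103 in the vehicle. SCN1A, a sodium channel gene with 25.9 to 28.5 CPM in the vehicle, fell to 11.4 to 12.8 in Sayeok-tang and 6.69 and 6.85 in dried ginger. Of 9 bile acid genes 3 were higher in dried ginger, among them NR0B2 (SHP, a repressor downstream of FXR, -0.55). Of the 26 ribosomal protein genes, 1 was higher in Sayeok-tang. Endoplasmic reticulum chaperones had 3 of 18 higher in each extract, and nuclear genes of the respiratory chain had 3 of 26 higher in each. Of 16 hepatocyte transcription factors, 5 were higher in Sayeok-tang and 2 in dried ginger, and of 15 genes of hepcidin, BMP signalling and iron the counts were 5 and 4. Circadian clock genes had 3 and 2 of 15, glucocorticoid receptor targets 3 and 1 of 9, and interferon response genes 2 and 1 of 10, in the same order. Fatty acid and glycerolipid synthesis had 2 of 15 higher in Sayeok-tang and 4 in dried ginger, and the IGF axis 1 and 3 of 10. Such small counts moved with single libraries: without dried ginger replicate 1, hepatocyte transcription factors had 3 higher in Sayeok-tang and 4 in dried ginger, and the nuclear respiratory chain genes had 1 and none.

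Against the vehicle, more genes differed in dried ginger than in the formula. In dried ginger 3249 rose and 3182 fell (46.1% in all), 310 and 205 of them at least 2-fold (3.69%). In Sayeok-tang 2835 rose and 2771 fell (40.2% in all), 144 and 136 of them at least 2-fold (2.01%). These comparisons share the vehicle libraries. Of the 101 genes at least 2-fold higher in dried ginger, 79 were higher and none lower than the vehicle in dried ginger (median 1.38), while in Sayeok-tang 24 were higher, 15 lower and 62 did not pass (median 0.03). Of the 35 at least 2-fold higher in Sayeok-tang, 22 fell, 3 rose and 10 did not pass in dried ginger (median -1.14), while in Sayeok-tang 10 rose, 6 fell and 19 did not pass (median 0.15).

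At the medium dose 15 genes were higher in Sayeok-tang and 23 in dried ginger (0.272% of genes in all, and 915 genes at an unadjusted p under 0.05), and leaving out any 1 of the 6 libraries left 11 to 23 calls. Metallothioneins already differed: 6 of 8 list members were lower in Sayeok-tang, and MT1X measured 29.7 to 33.9 CPM against 45.6 to 46.7 in dried ginger (log2 fold change -0.54, adjusted p = 0.00026). CYP1A1 measured 43.3 to 45 CPM in Sayeok-tang and 19.2 to 21.1 in dried ginger at the medium dose. That difference, 1.14 ± 0.0896 (adjusted p = 3.9e-12), was larger than at the high dose, and whether the 2 doses differ in it was not tested. The calls of CYP1A1, MT1F, MT1X, DUSP6, SULT2A1 (a bile acid sulfotransferase) and TACC1 were kept in all 14 alternative analyses of the medium dose. No ATF4 and CHOP target and no mitotic gene was called at the medium dose, where their list medians were -0.01 and 0.02. ASNS at that dose had an interval of -0.20 to 0.01, KIF20A one of -0.05 to 0.11 and SLC7A11 one of -0.10 to 0.14.

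**Figure D4:**
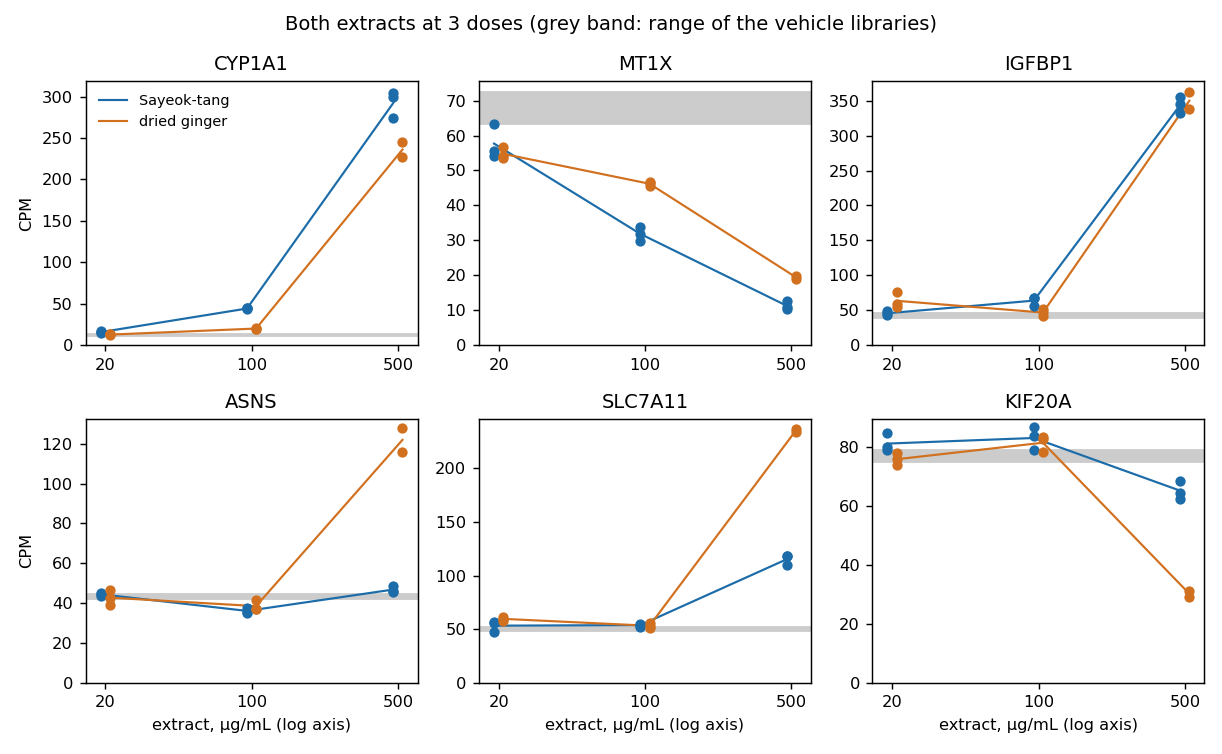
CPM (vertical axis, from 0) of 6 genes against extract dose (log axis, 20, 100 and 500 µg/mL), with a point for each library, lines through the means and a grey band for the range of the 3 vehicle libraries. ASNS, SLC7A11 and KIF20A separate at 500 µg/mL, while CYP1A1 and MT1X separate at 100 µg/mL.

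Of the genes called at both the medium and the high dose, AKR1B10, BTG2 and TNFRSF12A had opposite signs. AKR1B10, an aldo-keto reductase under NRF2, was 0.25 higher in Sayeok-tang at the medium dose and 0.56 lower at the high dose. BTG2, an antiproliferative p53 target, was lower in Sayeok-tang at the medium dose (-0.58, adjusted p = 0.014) and higher at the high dose (0.88, adjusted p = 5.5e-06). TNFRSF12A, a receptor of the TNF family, was 0.29 higher in Sayeok-tang at the medium dose (adjusted p = 0.023) and 0.17 lower at the high dose (adjusted p = 0.038). Each medium-dose call was kept in 9 of 14 alternative analyses, and the high-dose call of TNFRSF12A was kept in 7 of 13 and lost without any 1 of the 5 extract libraries. These were chosen after their values were seen.

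At the low dose 1 gene passed, 0.00717% of those tested, with 1808 genes at an unadjusted p under 0.05 and 2 calls by DESeq2. It was KRT18, a keratin of simple epithelia, at 0.21 higher in Sayeok-tang (edgeR, adjusted p = 0.025). KRT18 was also called higher in Sayeok-tang at the medium dose (0.16, edgeR, adjusted p = 0.044) and the high dose (0.17, adjusted p = 0.0022). The libraries of the 2 extracts carry different label numbers, whose meaning the labels do not give. The contrast of the high and low dose within each extract removes what such a number adds to every dose. The 2 extracts differed in that contrast in 2408 genes (17.3%), 1251 with more (8.97%) and 1157 with less (8.3%) of a rise in Sayeok-tang. In 130 genes (0.932%) that difference was at least 2-fold. All 20 mitotic genes were among the former, and 19 of 25 ATF4 and CHOP targets, 15 of 23 NRF2 targets and 6 of 8 metallothionein list members among the latter. The contrast reuses the high-dose libraries, so these counts are not separate support for those of the high-dose comparison. ASNS differed by -1.43, KIF20A by 1.01, UBD by 1.87, MT2A by -1.33 and CTSB by -0.87, each past the threshold. CYP1A1 differed by 0.01 (adjusted p = 0.97), and RGPD5, with -0.99 (adjusted p = 0.51), did not pass. Replicate 3 of the low dose of dried ginger stood apart from its group. The low dose gave no call without that library, and none without replicate 2 or replicate 3 of low-dose Sayeok-tang.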

How the data were processed

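The deposited values were expected counts per gene, which the authors estimated with RSEM 1.3.3 after FastQC 0.11.9, Trim Galore 0.6.5 and STAR 2.7.3a on GRCh38 (hg38), per the submitters' processing notes. Directional libraries were read as 100 bp pairs, per the labels' protocols. Of the nonzero values 76.07% were whole (tolerance 1e-09), and all were rounded to whole counts. A further 209 columns of the table were not used, and a replicate 3 of dried ginger at the high dose was not analysed here. Of 60675 identifiers, 56558 took a symbol from the current table and 497 from GENCODE release 29.

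A gene was tested where 3 libraries or more reached 1 CPM (13945 genes). TMM factors ran from 0.878 to 1.03. The model in edgeR 4.0.16 (R 4.3.3) had a mean for each of the 24 groups and used all 58 libraries. Its common dispersion of 0.00181 equals a 4.25% coefficient of variation, and 95% intervals used the moderated degrees of freedom. Replicates differed by a chi-square of at least 2.192 per gene, so none was a copy. Adjustment was by Benjamini-Hochberg within each of 6 comparisons, two-sided. The method was tested on simulated data. CPM were computed on TMM-scaled library sizes.

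Named genes were the 12 largest differences each way between the extracts and the 5 each way of each extract against the vehicle (called, at least 5 CPM, libraries not overlapping, readthrough, clone and uncharacterised names left out), up to 4 called members of each of 32 lists and a panel of 20. Other list members were named after their values were seen, and a few genes that met the rule or were on the lists are not reported here by name. The members, the lists and 6 marker lists were chosen with earlier results of these data known. Alternatives were RLE scaling, other filters, the compared groups alone, a replicate block, DESeq2 1.42.0 and leaving out libraries. Same-numbered libraries of the high-dose and vehicle groups did not visibly deviate together, a check too small to exclude pairing. Promoters are from RefSeq (GRCh38.p14), matched by symbol.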

Additional observations from a re-analysis of the deposited data

Results flagged for a closer look

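For 8 of the named genes reported here the extracts lay on opposite sides of the vehicle, each side past edgeR's threshold at an adjusted p of 0.05. A called difference between the extracts was part of the rule. Only the named genes (149 met the naming rule) were searched, so the share over all genes tested is not known. Higher in Sayeok-tang than the vehicle and lower in dried ginger were SLC2A3 (log2 fold change between the extracts 1.19), the nucleotide supply genes RRM2 (0.79) and RRM1 (0.49), and MT-CO3 (0.39), a subunit of cytochrome c oxidase. Lower in Sayeok-tang and higher in dried ginger were PCK2 (-0.65), DDIT3 (-0.62), the mitochondrial carnitine carrier gene SLC25A20 (-0.57) and the lysosomal protease gene CTSD (-0.39). The difference between the extracts was called for each of the 8 in all 13 alternative analyses. The sides against the vehicle were less steady for some: DDIT3 in dried ginger (0.21) was called in 8 of 13, MT-CO3 in Sayeok-tang (0.19) in 10 of 14, RRM1 in Sayeok-tang (0.09) in 11 of 14, and CTSD in dried ginger (0.17) in 11 of 13. SLC2A3, PCK2 and RRM2 were called on both sides in every alternative run.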

How the results depend on the processing

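The counts of genes called between the extracts at the high dose, and of either extract against the vehicle, stayed within 1.5 times the reported count under every alternative run. No named gene that was called changed sign. At the medium dose (38 calls), no filter gave 139, a replicate block within the compared groups 85, and leaving out 1 library each 11 to 23. At the low dose (1 call), no filter gave 385, DESeq2 2, the compared groups alone 0 and leaving out 1 library each 0 to 6. Leaving out 3 libraries that stand apart, chosen after seeing the data, gave 0. They include replicate 3 of low-dose dried ginger, a library of this comparison. For the contrast of doses (2408), the compared groups alone gave 1532 and with a replicate block 1292. Same-numbered libraries of the high-dose and vehicle groups had correlations of deviations from -0.056 to 0.0417. In groups this small the deviations are tied to each other by summing to 0, so the check cannot exclude pairing. The lower doses were not checked. The cause of these shifts in the counts was not tested. Of the 163 genes followed that were called between the extracts, 131 were called in every alternative and 3 (PCK1, HBEGF and TJP3) in fewer than 0.5 of them. The median standard error of the difference between the extracts was 0.075 on the log2 scale, with 2 dried ginger libraries.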
